A study of Mus musculus with 12 samples.

Results

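Collagens and the proteoglycans, elastic fibre proteins and crosslinking enzymes that organise them were examined in mouse skin papillomas that lacked or kept Fos in the epidermis. The genes were chosen by symbol: every gene named Col, a number, a and a number on the platform, apart from the hemidesmosome collagen Col17a1, together with a fixed set of matrix proteoglycans, fibrillins, fibulins, elastin, lysyl oxidases, Sparc and Postn. The rule found 53 genes, of which 51 had a value on at least 1 array and 47 could be tested, among 12006 named genes and 18861 features (named genes and unnamed spots) tested in all. Another 6 could not be tested, since too few specimens held a value: Col10a1, Col11a1, Col11a2, Col22a1, Col23a1 and Omd. Col3a1, which codes for a chief fibrillar collagen of skin, had no probe under that symbol and was not analysed here.

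The papillomas came from the tail skin of 6 mice of a mixed 129/Ola, C57BL/6, CBA, LVA and B6C3F1 background, whose age and sex the labels leave out. All 6 carried K5-Sos-F, an active form of the Ras activator Sos driven by the keratin 5 promoter in basal keratinocytes. In the 3 Fos-deficient mice (c-Fos Δ/Δ, specimens 6, 8 and 9) Fos was deleted in the epidermis alone on both alleles, and in the 3 Fos-floxed mice (c-Fos fl/fl, specimens 2, 3 and 5) both alleles were floxed and intact. Each papilloma was hybridised on 2 spotted 2-colour arrays with exchanged dyes against 1 reference RNA pooled from 11 mouse cell lines, an embryonic fibroblast line and a skin line among them, so that the animal is the replicate and its value is the mean of 2 arrays. Values are log ratios read here as log2 of papilloma over reference RNA, and each difference is the Fos-deficient mean minus the Fos-floxed mean. This direction is the likely one but is not stated in the sources used here, and a natural log is possible. A level of 1 gene therefore says only how it compares with the pooled cell lines and cannot be set against the level of another gene.

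In skin, collagen fibrils are built mainly by dermal fibroblasts. Fibrillar collagens form the fibril, FACIT collagens (fibril-associated collagens with interrupted triple helices) sit on its surface, and small leucine-rich proteoglycans such as decorin, lumican and fibromodulin bind it and control its thickness and spacing. Network-forming collagens make up the basement membrane, anchoring fibrils of type VII collagen tie the epidermis to the dermis, and fibrillins, fibulins and elastin form the elastic fibres that lysyl oxidases crosslink. The Fos protein pairs with Jun in the transcription factor AP-1 and is known as a regulator of matrix-degrading enzymes and of keratinocyte tumour growth.

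Across the whole experiment, 20811 to 26490 of 37632 probes held a value on an array, and the number of arrays limits the precision. Fos, the deleted gene, had values between -4.74 and -3.56 on the Fos-deficient arrays, against -1.79 to -0.43 on the Fos-floxed arrays, on its only probe. Its mean was -4.11 in Fos-deficient papillomas and -1.14 in Fos-floxed papillomas, a difference of -2.98 with an exact permutation p of 0.1, the smallest that 3 specimens against 3 allow. The keratinocyte markers Krt5 and Krt14 lay between 3.51 and 5.66 in every papilloma. The probe of Eif2s3y, a Y-linked gene, read -2.97, 2.64 and 2.04 in Fos-deficient specimens 6, 8 and 9, against -3.39, -2.92 and 2.61 in Fos-floxed specimens 2, 3 and 5, so specimens with high and low values stood in both groups, in unequal numbers. Its part in the results below was not tested. The labels name separate specimens but not whether they shared a litter or cage.

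Most matrix genes had a slightly higher mean in Fos-deficient papillomas, and the 6 highest differences were those of Dcn, Col16a1, Prelp, Lum, Fmod and Aspn. Of the 47 tested genes 35 (74.5%) had a difference above 0, against 55.1% of all features, and the median difference was 0.09, against 0.03 over all features. None passed an adjusted p of 0.05 in limma, where 0 of 18861 features (0%) passed, 2238 had an unadjusted p under 0.05, and the lowest adjusted p of a matrix gene was 0.198. At an unadjusted p under 0.05, 5 genes (10.6%) were higher in Fos-deficient papillomas, against 4.55% of all features: Col16a1, Dcn, Ogn, Prelp and Col6a3. At the same threshold 2 genes (4.26%), Col15a1 and Col5a3, were lower, against 7.31% of all features. The count of higher genes was 2 without Fos-deficient specimen 8 and 3 without Fos-floxed specimen 3, and Dcn and Prelp could no longer be tested without specimen 8. Leaving out 1 specimen moved the difference by over 1.5 times or turned its sign for 31 of the 47 genes.

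**Figure D1:**
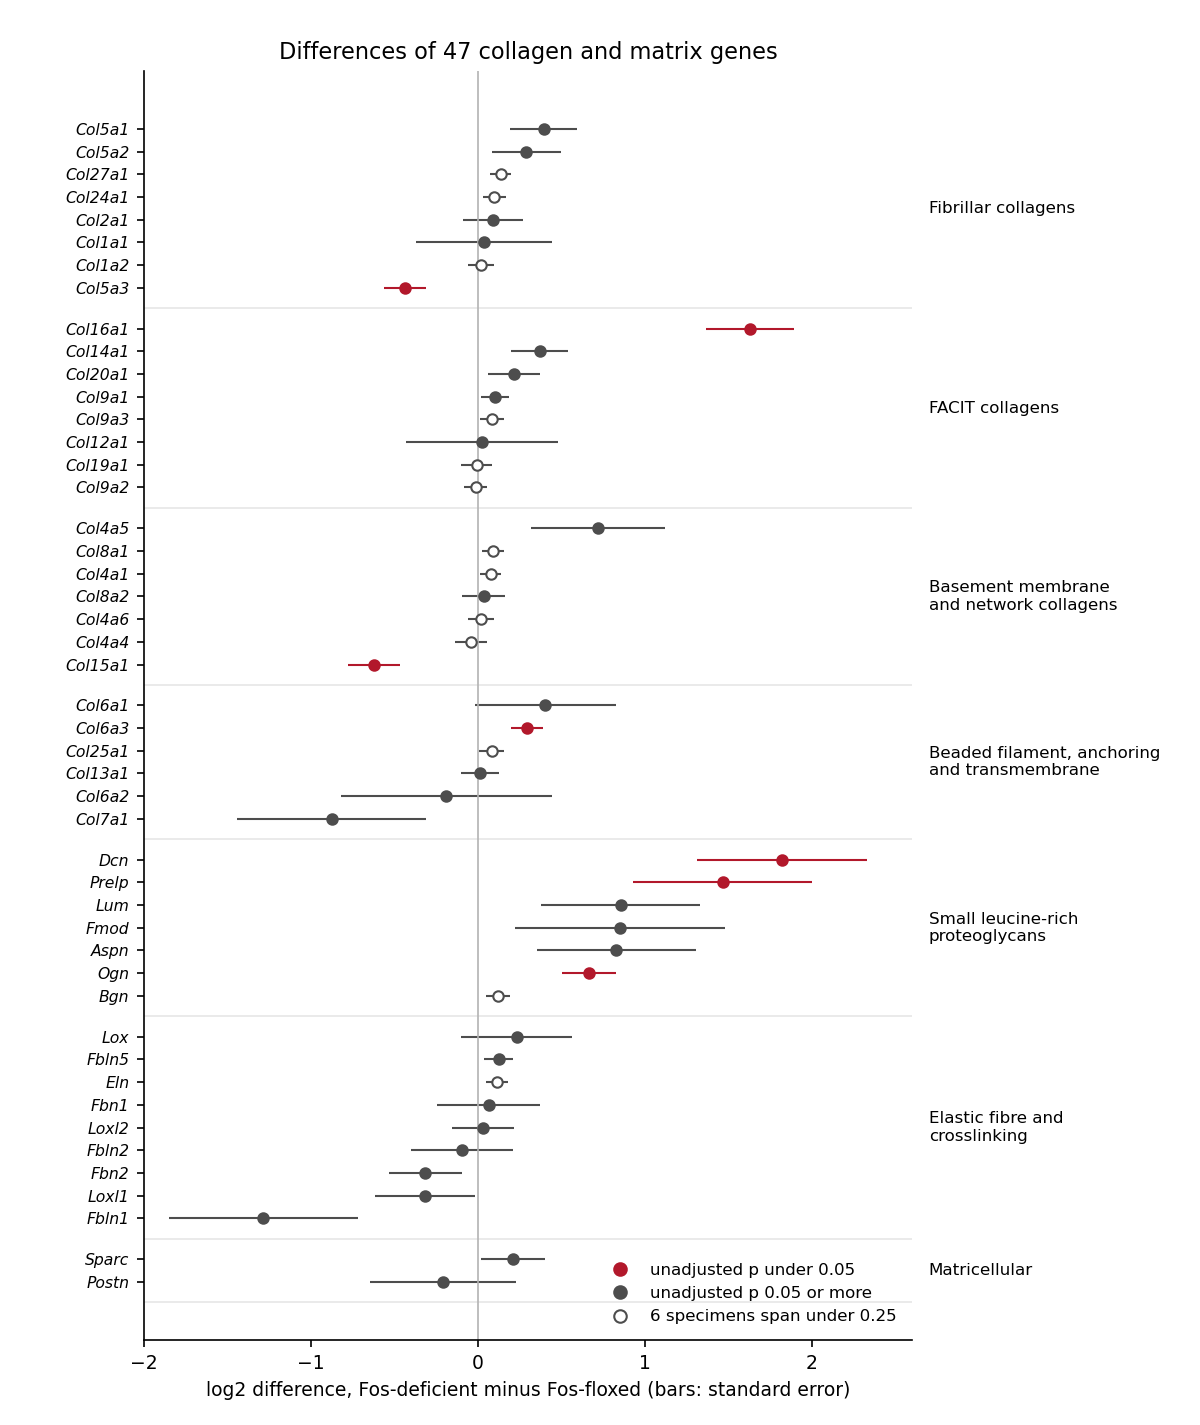
Differences of the 47 tested matrix genes in log2 (horizontal axis, Fos-deficient minus Fos-floxed, bars are the standard error from limma), in blocks by role. The small leucine-rich proteoglycans all lie right of 0, with Dcn at 1.82 and Bgn at 0.12, Col16a1 lies at 1.63 and Fbln1 at -1.29, and open circles mark genes whose 6 specimens span less than 0.25. Col1a2 and Sparc are drawn but are no measurement of those genes, since their probes share values with many others.

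Among the small leucine-rich proteoglycans, all 7 tested genes had a difference above 0, with a median of 0.85, and 3 of them (Dcn, Prelp and Ogn) had an unadjusted p under 0.05. Dcn, which codes for decorin, a collagen-binding proteoglycan of the dermis, read 1.59 and 1.47 in Fos-deficient specimens 6 and 8, against -0.92, -0.61 and 0.66 in Fos-floxed specimens 2, 3 and 5. Specimen 9 had only its Cy3 array, at 0.44, and did not enter the fit. The difference was 1.82 with a standard error of 0.51 (limma adjusted p = 0.308), and 1.46 when the single array of specimen 9 was used. On the arrays with the papilloma in Cy3 the 3 Fos-deficient papillomas (1.62, 0.98 and 0.44) all lay above the 3 Fos-floxed papillomas (-1.26, -1.09 and 0.21).

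Prelp codes for a leucine-rich proteoglycan that links basement membranes to connective tissue collagen. It read 2.30 and 1.69 in Fos-deficient specimens 8 and 9, against 0.10, -0.01 and 1.49 in Fos-floxed specimens 2, 3 and 5, with only a Cy3 array, at 1.53, in specimen 6. The difference was 1.47 with a standard error of 0.54 (limma adjusted p = 0.409). As for Dcn, Fos-floxed specimen 5 was the highest of the Fos-floxed papillomas and the other 2 lay well below the Fos-deficient papillomas. Specimen 5 lay close to the lower fitted Fos-deficient value for Prelp (1.49 and 1.69) but not for Dcn (0.66 and 1.47).

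Ogn, which codes for osteoglycin, a small proteoglycan of connective tissue, was below the reference in every papilloma. It read -1.66, -1.33 and -1.93 in Fos-deficient specimens 6, 8 and 9, against -2.25, -2.35 and -2.33 in Fos-floxed specimens 2, 3 and 5. The groups did not overlap in the mean of both dyes, and the difference was 0.67 with a standard error of 0.16 (limma adjusted p = 0.243). In that mean the SD was 0.30 in Fos-deficient papillomas and 0.05 in Fos-floxed papillomas. The narrow Fos-floxed band did not hold on single arrays, where specimen 2 read -2.82 in Cy3 and -1.68 in Cy5. With the papilloma in Cy5 the groups overlapped, as Fos-floxed specimen 2 (-1.68) lay above Fos-deficient specimen 9 (-1.82). With it in Cy3 they did not overlap. The difference was 0.48 in Cy5 and 0.85 in Cy3.

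Lum, Aspn and Fmod had differences of 0.83, 0.85 and 0.86 in the order Aspn, Fmod and Lum, each moved by over 1.5 times when 1 specimen was left out, and none had an unadjusted p under 0.05. Lum, the gene of lumican, read 2.91, 2.30 and 2.25 in Fos-deficient papillomas, against 0.60, 2.05 and 2.24 in Fos-floxed papillomas, and its difference was 0.34 without Fos-floxed specimen 2. The groups did not overlap in the mean of both dyes, but with the papilloma in Cy3 they did (2.31, 1.93 and 1.85 in Fos-deficient against 0.64, 2.05 and 2.39 in Fos-floxed papillomas). Aspn, the gene of asporin, a close relative of decorin, read 1.17, 1.53 and 0.59 in Fos-deficient papillomas, against -0.61, 0.34 and 1.07 in Fos-floxed papillomas, and its difference was 0.39 without Fos-floxed specimen 2. For both genes Fos-floxed specimen 2 was the lowest of the 6.

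Fmod, the gene of fibromodulin, read -2.02, -2.37 and -0.31 in Fos-deficient papillomas, against -2.44, -1.75 and -3.06 in Fos-floxed papillomas. Specimen 9 stood far above the rest, and the difference was 0.22 without it. Bgn, the gene of biglycan, hardly varied, with 0.33, 0.28 and 0.21 in Fos-deficient papillomas against 0.18, 0.10 and 0.17 in Fos-floxed papillomas. Omd, the gene of osteomodulin, was not tested, and Vcan, the gene of the large proteoglycan versican, was found only after its older platform symbol was updated and had a difference of 0.06.

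**Figure D2:**
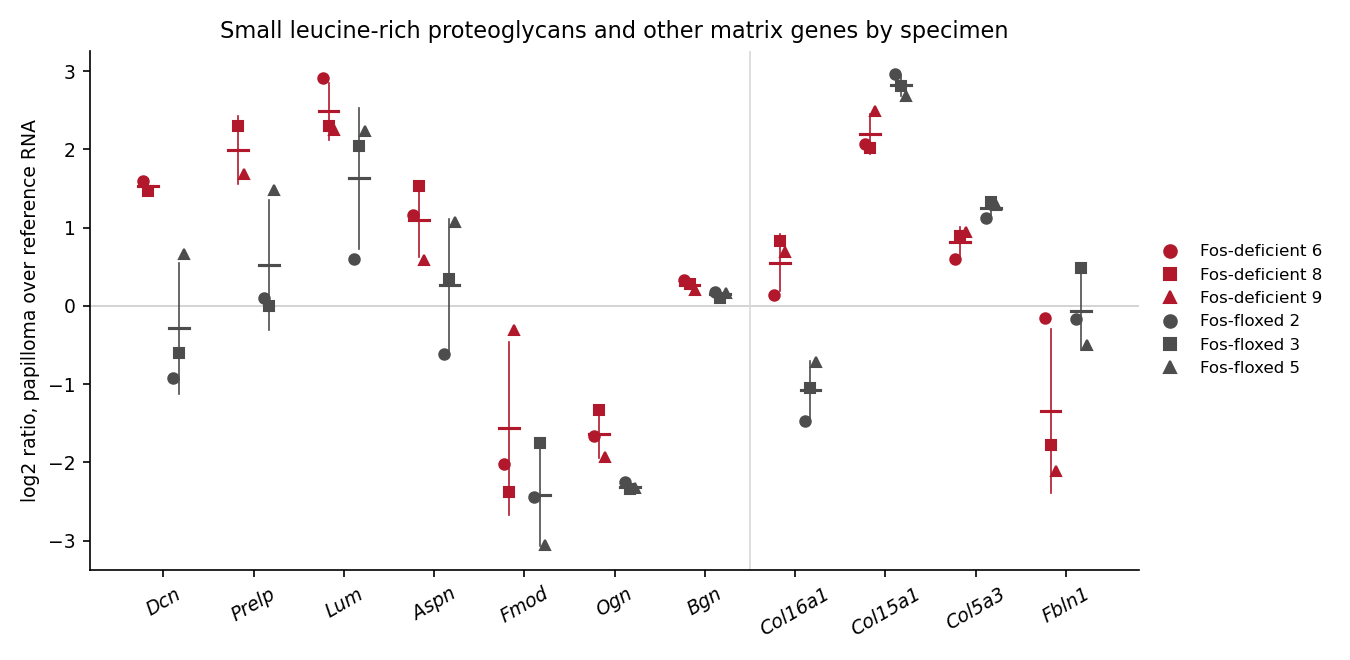
Log2 ratio over reference RNA (vertical axis) of each papilloma for 7 small leucine-rich proteoglycans and for 4 other matrix genes, Fos-deficient specimens in red left of Fos-floxed specimens in grey. Each point is the mean of 2 arrays and bars are the mean and SD; for Dcn and Prelp 2 Fos-deficient specimens are drawn, and Col16a1 shows 3 Fos-deficient points between 0.14 and 0.82 above 3 Fos-floxed points between -1.47 and -0.71.

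Several of these proteoglycan genes are neighbours in the RefSeq gene table. Dcn and Lum lie next to each other on chromosome 10, Fmod and Prelp on chromosome 1, and Ecm2, Aspn, Omd and Ogn follow one another on chromosome 13. Dcn and Lum ranked their 5 shared specimens alike, with Fos-deficient specimens 6 and 8 above Fos-floxed specimens 5, 3 and 2. Fmod and Prelp did not. Fos-deficient specimen 8 was above specimen 9 for Prelp (2.30 and 1.69) and far below it for Fmod (-2.37 and -0.31). Ecm2, the gene of a matrix protein with leucine-rich repeats that was named after its values were seen, had a difference of 0.98 with 2 Fos-floxed specimens measured.

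The gene with the smallest p was Col16a1, which codes for a FACIT collagen found near the dermal-epidermal junction and on fibrillin microfibrils. It read 0.14, 0.82 and 0.69 in Fos-deficient specimens 6, 8 and 9, against -1.47, -1.05 and -0.71 in Fos-floxed specimens 2, 3 and 5. Every Fos-deficient papilloma was above and every Fos-floxed papilloma below the reference, and the groups were separated by a wide gap. The difference of 1.63, a 3.09-fold higher level, had a standard error of 0.26 (limma adjusted p = 0.198). It was 1.59 with the papilloma in Cy3 and 1.67 in Cy5, and between 1.44 and 1.83 when any 1 specimen was left out. Where all 12 arrays entered 1 fit with the specimen as a random block, Col16a1 was the only matrix gene of 51 (1.96%) with an adjusted p under 0.05 (0.00989), against 324 of 22018 features (1.47%), a share near that of the matrix genes.

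The promoter windows of Col16a1 and of the small leucine-rich proteoglycans Ogn, Aspn and Prelp are shown because these genes lay higher in Fos-deficient papillomas and Fos acts as part of a DNA-binding factor. Each runs from 250 bases before to 50 bases after the start of the gene, 5′ to 3′ on the gene's strand (RefSeq, GRCm38.p6), with the motifs CCAAT (or ATTGG) and TATAAA in capitals. The positions are chr4:130047590-130047889 on the plus strand for Col16a1, chr13:49607765-49608064 on the plus strand for Ogn, chr13:49544193-49544492 on the plus strand for Aspn and chr1:133921352-133921651 on the minus strand for Prelp.
Col16a1: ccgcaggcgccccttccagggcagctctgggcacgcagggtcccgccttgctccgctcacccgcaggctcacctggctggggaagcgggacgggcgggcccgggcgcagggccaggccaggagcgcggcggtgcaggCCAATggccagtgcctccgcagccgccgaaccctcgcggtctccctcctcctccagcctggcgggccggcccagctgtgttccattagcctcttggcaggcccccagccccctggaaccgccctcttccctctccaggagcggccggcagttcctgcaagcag
Ogn: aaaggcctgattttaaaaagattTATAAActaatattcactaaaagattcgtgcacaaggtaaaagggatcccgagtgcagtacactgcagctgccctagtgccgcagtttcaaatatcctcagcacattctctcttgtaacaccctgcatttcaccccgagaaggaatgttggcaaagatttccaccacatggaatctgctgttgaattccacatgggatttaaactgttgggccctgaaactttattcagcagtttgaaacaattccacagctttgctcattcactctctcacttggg
Aspn: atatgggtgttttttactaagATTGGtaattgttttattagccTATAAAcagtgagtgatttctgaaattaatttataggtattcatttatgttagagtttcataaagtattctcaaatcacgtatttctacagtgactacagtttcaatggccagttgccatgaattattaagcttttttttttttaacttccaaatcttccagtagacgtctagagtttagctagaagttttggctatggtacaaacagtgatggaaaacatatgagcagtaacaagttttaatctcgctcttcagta
Prelp: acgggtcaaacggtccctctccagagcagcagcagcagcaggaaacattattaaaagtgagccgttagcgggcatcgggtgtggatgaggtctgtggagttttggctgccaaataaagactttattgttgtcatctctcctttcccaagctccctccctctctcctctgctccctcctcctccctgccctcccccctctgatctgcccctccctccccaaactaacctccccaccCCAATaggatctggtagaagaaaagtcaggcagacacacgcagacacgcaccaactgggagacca
GC content was 74.3% for Col16a1, 42.3% for Ogn, 31.0% for Aspn and 55.3% for Prelp.

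None of these 4 windows held an AP-1 motif, searched as TGACTCA and its reverse complement TGAGTCA, or a CRE, searched as TGACGTCA, which is its own reverse complement. Of the 47 tested genes 34 had a promoter window. An AP-1 motif was found in 1 of them (2.94%), that of Col6a1, against 5.20% of all 32851 windows, and a CRE in 1, that of Col24a1, against 1.79%. CCAAT or ATTGG was found in 13 (38.2%), against 37.4% of all windows, and TATAAA, searched on the gene's strand, in 4 (11.8%), against 8.32%. A match is a run of letters and not a measured binding site. Fos was deleted in the epidermis alone, and whether the cells that held these transcripts lost Fos was not tested.

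The fibrillar collagens, which form the body of the fibril, had differences between -0.44 and 0.39. Of 8 tested genes 7 had a difference above 0, against 55.1% of all features, with a median of 0.10. The exception was Col5a3, which codes for a minor chain of type V collagen. Col5a3 read 0.59, 0.90 and 0.95 in Fos-deficient papillomas, against 1.13, 1.33 and 1.29 in Fos-floxed papillomas. The groups did not overlap in the mean of both dyes, and the difference was -0.44 with a standard error of 0.12 (limma adjusted p = 0.282). With the papilloma in Cy5 they overlapped (0.92, 1.24 and 1.24 in Fos-deficient against 1.20, 1.61 and 1.36 in Fos-floxed papillomas). The difference was -0.26 in Cy5 and -0.61 in Cy3.

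Col1a1 and Col1a2 code for the chains of type I collagen, the main collagen of the dermis. Col1a1 read -0.83, 0.29 and 0.55 in Fos-deficient papillomas, against -0.30, -0.23 and 0.42 in Fos-floxed papillomas. The groups overlapped fully, with a difference of 0.04 and a standard error of 0.41 (limma adjusted p = 0.975), and the sign turned in 6 of 16 alternatives. Col1a2 could not be read in the same way. On 10 of its 12 arrays its probe held, to the last digit, the value most often shared by probes of that array, which 9 to 102 probes held, probes of abundant transcripts such as Eef1a1, Aldoa and Actb among them. These shared values lay between 0.58 and 0.75 with the papilloma in Cy3 and between -0.30 and -0.10 in Cy5, so the flat level of Col1a2 (0.12 to 0.28) and its difference of 0.02 are no measurement of the gene. The Sparc probe sat at the shared value on 6 of 12 arrays, where it equalled Col1a2. The cause was not tested, and spot signals were not analysed here. Without these 2 genes 33 of 45 matrix genes (73.3%) had a difference above 0. With a standard error of 0.41 for Col1a1, the test does not show that type I collagen was alike in both groups.

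The other major chains of type V collagen, which starts fibril formation, had higher means in Fos-deficient papillomas, with an unadjusted p above 0.05. Col5a1 read 0.73, 1.01 and 0.77 in Fos-deficient papillomas, against 0.06, 0.48 and 0.79 in Fos-floxed papillomas, a difference of 0.39 with a standard error of 0.20 (limma adjusted p = 0.518), and of 0.20 without Fos-floxed specimen 2. Col5a2 had a difference of 0.29, and of 0.13 without Fos-deficient specimen 8. For both genes Fos-floxed specimen 2 was the lowest of the 6, and Col27a1, a fibrillar collagen of cartilage and other tissues, had a difference of 0.14 with a standard error of 0.07 (limma adjusted p = 0.493).

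Apart from Col16a1, the FACIT collagens had differences between -0.01 and 0.37. Col14a1, which codes for a fibril-surface collagen of dermis and tendon, read 1.01, 0.68 and 0.47 in Fos-deficient papillomas, against 0.24, 0.26 and 0.56 in Fos-floxed papillomas, with a difference of 0.37 and a standard error of 0.17 (limma adjusted p = 0.477), and of 0.22 without Fos-deficient specimen 6. Its other probe, which had no value in Fos-floxed specimen 2, gave 0.82, but the groups overlapped. On that probe Fos-deficient papillomas read 1.81, 0.19 and 1.94, against 0.80 and 0.19 in Fos-floxed specimens 3 and 5. Col20a1 had a difference of 0.22 with a standard error of 0.16 (limma adjusted p = 0.624), and of 0.11 without Fos-floxed specimen 5. Col12a1, which codes for a FACIT collagen of dense connective tissue, varied more within the groups than between them, with -1.62, -1.82 and -0.95 in Fos-deficient papillomas against -1.85, -0.57 and -2.05 in Fos-floxed papillomas.

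Among the basement membrane and network collagens, Col15a1 had the lower mean in Fos-deficient papillomas. It codes for a collagen that joins basement membranes to the tissue beneath, above all around vessels and muscle. It read 2.07, 2.02 and 2.49 in Fos-deficient papillomas, against 2.96, 2.81 and 2.68 in Fos-floxed papillomas, as the mean of 2 probes. The groups did not overlap, and the difference was -0.62 with a standard error of 0.16 (limma adjusted p = 0.253). The probes gave -0.59 and -0.66 but lay far apart in level, and on the probe with the lower ratios the groups overlapped, with 0.24, -0.25 and 1.50 in Fos-deficient against 1.20, 1.33 and 0.95 in Fos-floxed papillomas.

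Most markers of vessels had differences below 0. Of 10 tested endothelial markers 8 had a difference below 0, whereas 55.1% of all features lay above 0. Their median was -0.17, and none had an unadjusted p under 0.05. Of 8 smooth muscle and pericyte markers 6 were below 0, with a median of -0.14. Relative to the Fos-floxed mean, the mean of the endothelial markers was 0.22, -0.76 and -0.03 in Fos-deficient specimens 6, 8 and 9, and -0.22, -0.02 and 0.24 in Fos-floxed specimens 2, 3 and 5. The part of vessels in the Col15a1 difference was not tested. In whole tumours, fewer cells of a type and less RNA per cell cannot be told apart.

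Of the type IV collagens, the sheet-forming collagens of the basement membrane, Col4a5 varied most. It read -3.23, -1.85 and -2.68 in Fos-deficient papillomas, against -3.49, -3.62 and -2.81 in Fos-floxed papillomas, a difference of 0.72 with a standard error of 0.40 (limma adjusted p = 0.549), and of 0.35 without Fos-deficient specimen 8. Its level was far below the reference everywhere, and the groups overlapped. Col4a1, Col4a4 and Col4a6 spanned less than 0.25 over the 6 papillomas, with differences of 0.08, -0.04 and 0.02.

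Type VI collagen forms beaded filaments around cells and fibrils. Col6a3 read -0.20, -0.04 and -0.16 in Fos-deficient papillomas, against -0.29, -0.53 and -0.46 in Fos-floxed papillomas. The groups did not overlap in the mean of both dyes, with a difference of 0.29 and a standard error of 0.10 (limma adjusted p = 0.340). With the papilloma in Cy5 they overlapped on each of its 2 probes, and the difference was 0.18, against 0.41 in Cy3. Col6a1 read -0.97, 0.56 and 0.18 in Fos-deficient papillomas, against -0.79, -0.49 and -0.16 in Fos-floxed papillomas. Col6a2 read -1.61, 0.30 and 0.75 in Fos-deficient papillomas, against -0.36, 0.16 and 0.20 in Fos-floxed papillomas. Fos-deficient specimen 6 was the lowest of the 6 for Col6a1 and Col6a2, which are neighbours on chromosome 10, and also for Col1a1.

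Col7a1, the gene of the anchoring fibril collagen made by keratinocytes and fibroblasts, was far above the reference in every papilloma. It read 3.59, 2.59 and 4.80 in Fos-deficient papillomas, against 4.39, 4.90 and 4.33 in Fos-floxed papillomas. Specimens 6 and 8 were below all Fos-floxed papillomas but specimen 9 was within their range, and the difference was -0.88 with a standard error of 0.56 (limma adjusted p = 0.595). Without specimen 9 it was -1.45 and without specimen 8 it was -0.34. Among keratinocyte markers Krt5 and Krt14 had differences of 0.15 and 0.13, whereas Dsg3, the gene of an adhesion protein of basal and lower suprabasal cells, had a difference of -1.23 and Trp63, the gene of a basal cell transcription factor, one of -0.41.

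**Figure D3:**
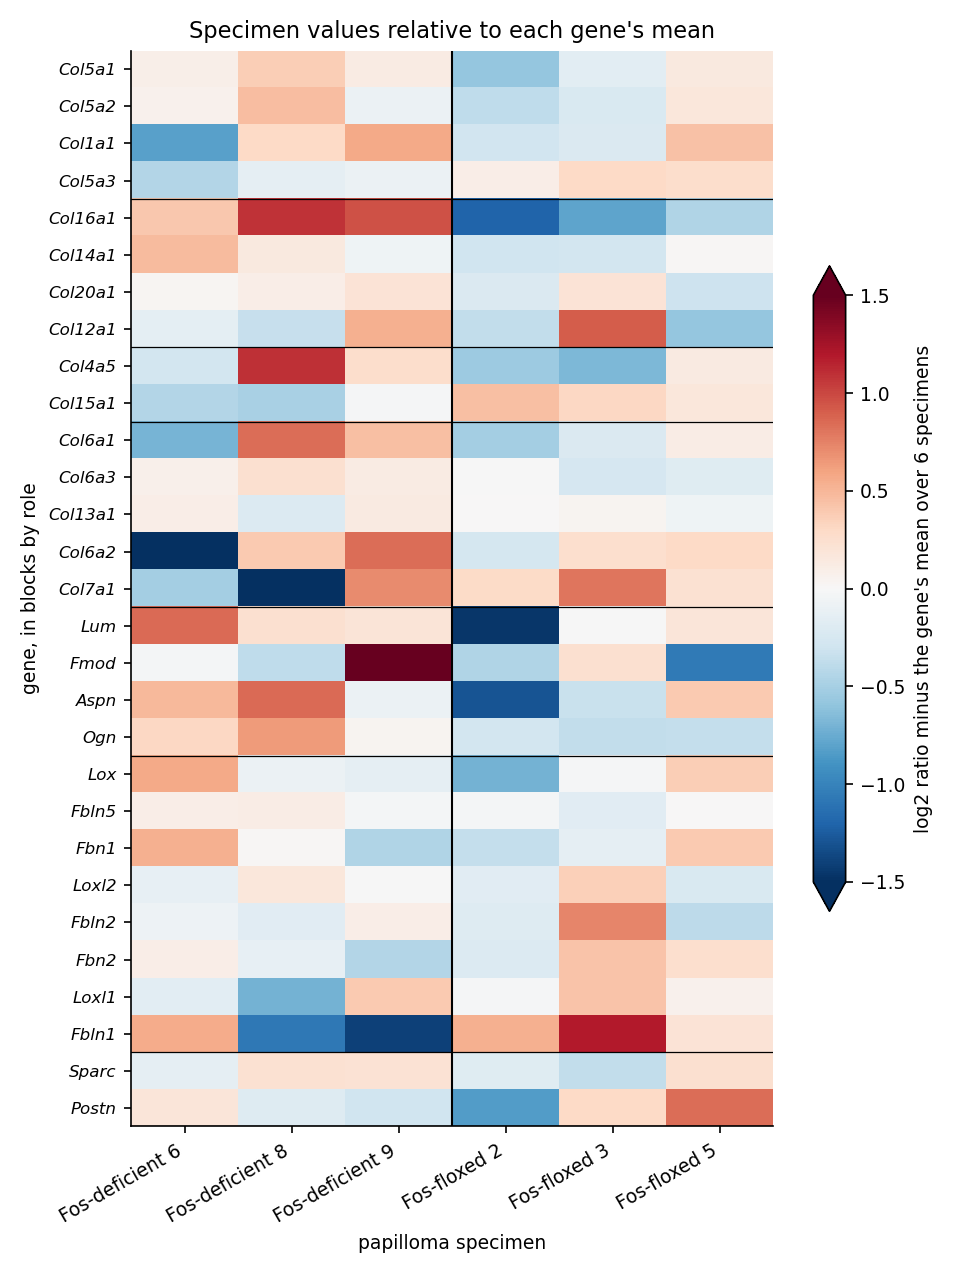
Log2 ratio of each papilloma minus the mean of the gene over the 6 papillomas (colour, red above and blue below, saturated at 1.5) for the 29 tested matrix genes with 6 values that span at least 0.25, in blocks by role with Fos-deficient specimens left of the line. Single dark cells show the specimens on which differences rest, such as Fos-floxed specimen 2 for Lum, Fos-deficient specimen 9 for Fmod and Fos-deficient specimen 6 for Col6a2, and the values of Sparc are not readable.

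Elastic fibre and crosslinking genes did not share a direction: 5 of 9 had a difference above 0, against 55.1% of all features. Their median was 0.03, and none had an unadjusted p under 0.05. Fbln1, the gene of fibulin-1, a glycoprotein of elastic fibres and basement membranes, read -0.15, -1.78 and -2.11 in Fos-deficient papillomas, against -0.17, 0.49 and -0.50 in Fos-floxed papillomas. Specimens 8 and 9 lay below all Fos-floxed papillomas and specimen 6 did not. The difference was -1.29 with a standard error of 0.57 (limma adjusted p = 0.459), and its probes gave -1.04 and -1.53.

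The remaining elastic fibre genes differed less. Eln, the gene of elastin, had a difference of 0.11 and Fbln5, needed for elastic fibre assembly, one of 0.13. The fibrillin genes Fbn1 and Fbn2 had differences of 0.06 and -0.32, and the lysyl oxidase genes Lox, Loxl1 and Loxl2 had 0.23, -0.32 and 0.03. The probes of Fbn2 disagreed, with -0.65 and 0.02, and so did those of Loxl1, with -0.61 and -0.02. For Sparc, whose product binds collagen during secretion and assembly, no difference is read, since its probe shared its value with many others on 6 of 12 arrays. Postn, the gene of periostin, a matricellular protein of tumour stroma, read 3.15, 2.78 and 2.68 in Fos-deficient papillomas, against 2.14, 3.28 and 3.81 in Fos-floxed papillomas, whose spread held all 3 Fos-deficient values.

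Against the cell line reference, 4 matrix genes had a mean above 1 in both groups: Col7a1, Col15a1, Postn and Lum. A mean below -1 in both groups was found for 8 genes: Lox, Col4a5, Fbln2, Col20a1, Ogn, Fmod, Col12a1 and Loxl1. The other 35 lay between or on different sides.

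Small positive differences were also common in the whole table. Of the 42 matrix genes with values in all 6 papillomas, 11 (26.2%) had groups that did not overlap with Fos-deficient papillomas higher, against 10.9% of all features, and 2 (4.76%) had them lower, against 9.09%. Among these 11, 7 spanned less than 0.25 over the 6 papillomas, a width chosen after the values were seen: Col9a3, Col8a1, Col4a1, Eln, Col27a1, Col24a1 and Bgn. Of all features with 6 values 23.3% were as flat, and 13 of the 42 matrix genes (31.0%).

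Flat features lay above 0 in 79.6% of cases, with a median difference of 0.05, whereas features that spanned 0.25 or more lay above 0 in 47.6%, with a median of -0.02. Of the 13 flat matrix genes 10 were above 0, with a median difference of 0.08, and 7 (53.8%) had groups that did not overlap with Fos-deficient papillomas higher, against 17.1% of flat features. Of the 29 others 20 (69.0%) were above 0, with a median of 0.13, and 4 (13.8%) had groups that did not overlap with Fos-deficient papillomas higher, against 9.01% of features that spanned as much. Those 4 were Col16a1, Col6a3, Ogn and Lum. On 4064 flat probes the array medians ran from 0.32 to 0.43 with the papilloma in Cy5 and from -0.08 to 0.06 with it in Cy3. Spot signals were not analysed here, and the part of dim spots in the flat values was not tested.

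**Figure D4:**
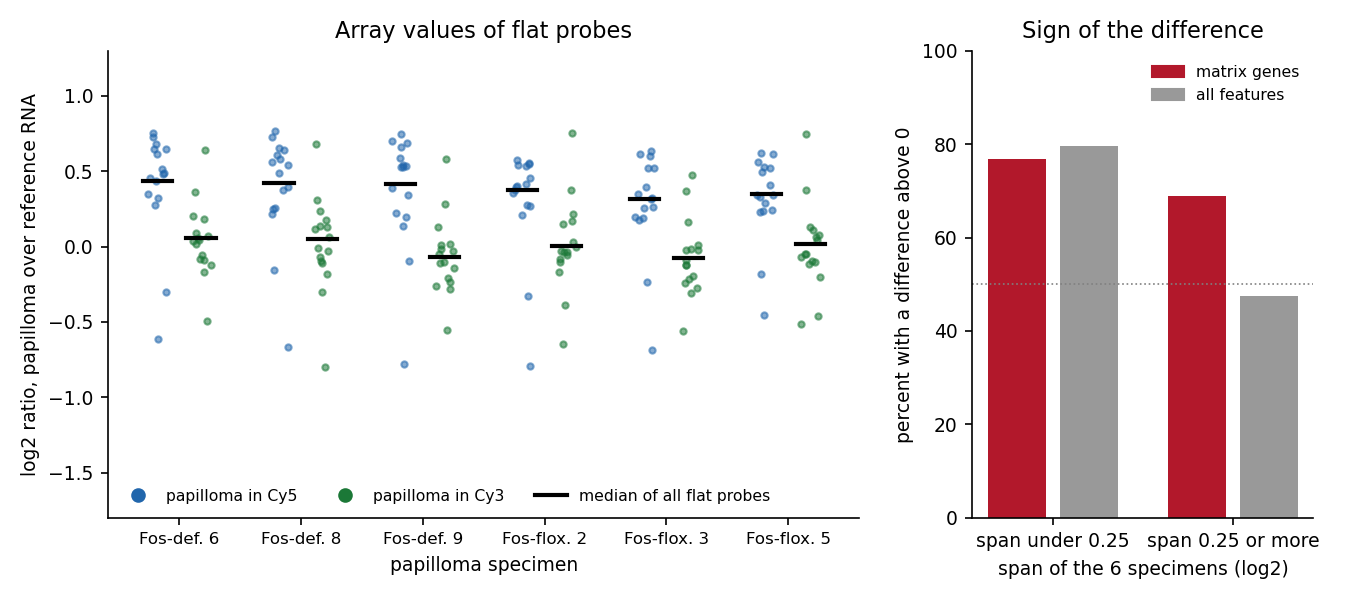
Left, log2 ratios on each array of the 16 matrix probes whose 6 papillomas span less than 0.25, by specimen and by the dye of the papilloma, with black lines at the median of all 4064 flat probes, which is higher in Cy5 on every specimen. Right, percent of matrix genes (red) and of all features (grey) with a difference above 0, for a span under 0.25 (76.9% and 79.6%) and for a wider span (69.0% and 47.6%), with a dotted line at equal shares.

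Genes that process collagen before and after secretion did not move in 1 direction. Of 25 tested, 12 had a difference above 0, against 55.1% of all features, with a median of -0.02. An unadjusted p under 0.05 was found for 4, 2 in each direction, against 4.55% of all features higher and 7.31% lower. P3h3 and P3h2, which code for prolyl 3-hydroxylases, differed by 0.60 and -0.30, and Colgalt1, the gene of the collagen galactosyltransferase that glycosylates hydroxylysine, by -0.61. The fourth, Pcolce, which codes for an enhancer of procollagen C-propeptide removal, read -1.72, -1.27 and -1.93 in Fos-deficient papillomas, against -2.76, -2.66 and -1.94 in Fos-floxed papillomas, a difference of 0.81.

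Of 25 matrix assembly partners 17 had a difference above 0, against 55.1% of all features, with a median of 0.29. An unadjusted p under 0.05 was found for 4, 3 of them higher, against 4.55% of all features higher. Cthrc1, the gene of a secreted protein of activated fibroblasts, read 2.17, 2.80 and 1.46 in Fos-deficient papillomas, against -0.18, 0.14 and 1.52 in Fos-floxed papillomas, a difference of 1.64 with a standard error of 0.55 (limma adjusted p = 0.346). Fbln7 had a difference of 0.42, and Adamtsl4, which codes for a fibrillin-binding protein, one of 0.54. Thbs1, the gene of the matricellular protein thrombospondin-1, read 1.11, -0.61 and -0.91 in Fos-deficient papillomas, against 2.10, 2.52 and 1.04 in Fos-floxed papillomas, a difference of -2.02 with a standard error of 0.65 (limma adjusted p = 0.330).

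Some partners named after their values were seen shared their highest Fos-floxed specimen with Dcn and Prelp. Mfap4 and Mfap5, microfibril genes, differed by 0.97 and 1.21, and Dpt, the gene of dermatopontin, a decorin-binding dermal protein, by 0.60. For Dcn, Prelp, Lum, Aspn, Col16a1, Cthrc1, Pcolce and these 3 genes Fos-floxed specimen 5 was the highest of the Fos-floxed papillomas. These genes were picked for that order, and other proteoglycans did not share it: Fos-floxed specimen 5 was the lowest of the 6 papillomas for Fmod (-3.06), and Fos-floxed specimen 2 was the highest Fos-floxed papilloma for Ogn (-2.25) and Bgn (0.18).

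**Figure D5:**
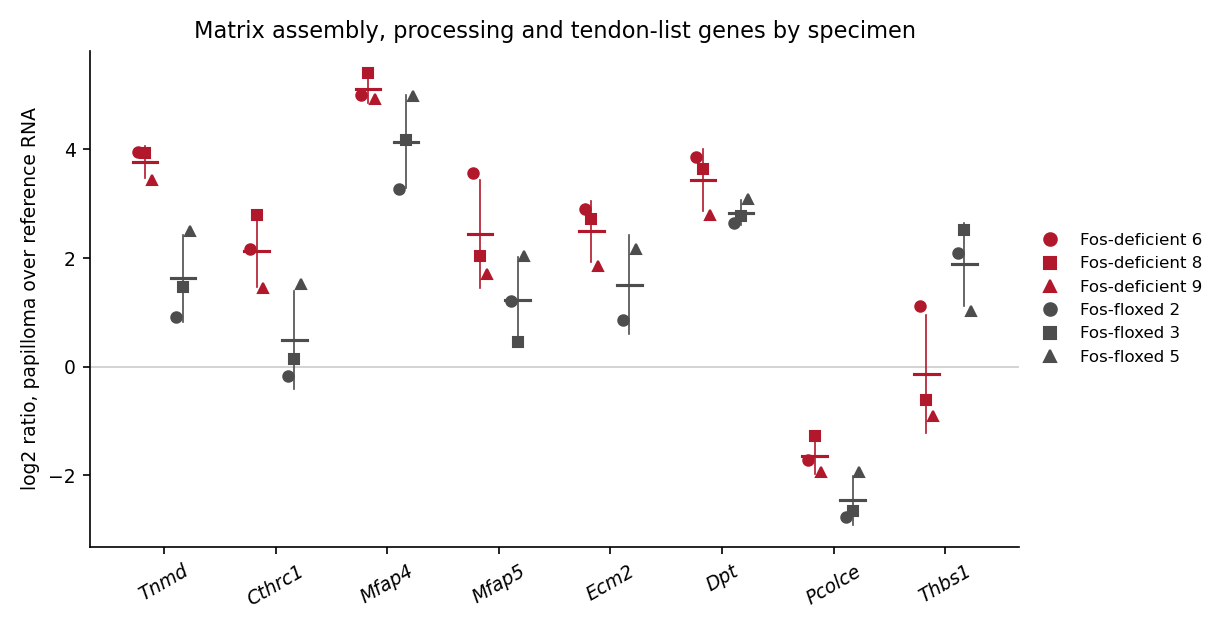
Log2 ratio over reference RNA (vertical axis) of each papilloma for Tnmd and for 7 genes of matrix assembly and processing, Fos-deficient specimens in red left of Fos-floxed specimens in grey, with mean and SD bars. Tnmd lies at 3.43 to 3.96 in Fos-deficient and at 0.92 to 2.50 in Fos-floxed papillomas, and Thbs1 is the only one of the 8 with the lower mean in Fos-deficient papillomas.

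Markers of the cells that could carry these transcripts did not shift together. Of 16 tested fibroblast markers outside the matrix, 11 had a difference above 0, with a median of 0.08, 1 had an unadjusted p under 0.05 upward (Mdk, 0.74) and 2 downward, among them Crabp2 at -1.11. Relative to the Fos-floxed mean, their mean was 0.27, -0.13 and -0.04 in Fos-deficient specimens 6, 8 and 9, and -0.10, -0.08 and 0.18 in Fos-floxed specimens 2, 3 and 5, and the groups overlapped. The part of fibroblasts in the matrix differences was not tested, nor was the cell type that held the Crabp2 transcripts. Pdgfrb differed by -0.07, and the fibroblast marker Pdgfra was not tested.

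Tail skin lies over tendon and bone, and Tnmd, the tendon gene of tenomodulin, also had a higher mean in Fos-deficient papillomas. It read 3.96, 3.93 and 3.43 in Fos-deficient papillomas, against 0.92, 1.47 and 2.50 in Fos-floxed papillomas, a difference of 2.14 with a standard error of 0.42 (limma adjusted p = 0.212). Of the 7 tested cartilage, bone and tendon markers 6 were above 0, against 55.1% of all features, with a median of 0.11. Mkx, the gene of a tendon transcription factor, had a difference of 0.32. Scx and Alpl differed by 0.11 and 0.25, with groups that overlapped. Matn1 and Sp7, at 0.07 and 0.06, spanned less than 0.25, and Sox9 differed by -0.57. The mean of the 7, Tnmd included, was taken relative to the Fos-floxed mean. It was 0.50, 0.60 and -0.08 in Fos-deficient specimens, and -0.14, -0.02 and 0.17 in Fos-floxed specimens. Dcn, Fmod, Aspn and Prelp are also expressed in tendon, and the part of tendon tissue in their differences was not tested.

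The other cell type lists held between 5 and 11 tested genes, and 55.1% of all features lay above 0. Of 11 keratinocyte markers 5 were above 0, with a median of -0.03, and of 8 macrophage markers 5, with a median of 0.03. The groups did not overlap for 3 keratinocyte markers lower and 1 higher in Fos-deficient papillomas, against 9.09% and 10.9% of all features. Of the macrophage markers, only Cd68, at -0.83, had groups that did not overlap. Of 5 adipocyte markers 4 were above 0, although Fabp4, the gene of a fatty acid carrier, had a difference of -1.08 and Pparg, the gene of the adipocyte nuclear receptor, one of 1.33. Of 5 Schwann cell markers 4 were above 0. Sox10, the gene of a glial and melanocyte transcription factor, differed by 0.61 and Pmp22 by 0.65. S100b and Mbp, at 0.08 and 0.07, spanned less than 0.25 over the papillomas. Cdh19 went the other way at -0.39, and its groups did not overlap in the mean of both dyes.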

How the data were processed

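Papillomas of 3 Fos-deficient and 3 Fos-floxed mice were hybridised on 12 two-colour arrays. Per the labels' protocols, RNA was isolated with TRIzol and amplified with T7 polymerase. The authors deposited 1 log ratio per probe and array, read here as log2. How they were normalized, their log base and why cells are empty is not given in the sources used here. Array maxima reached 7.34, which makes base 10 implausible, and all arrays correlated positively (r 0.705 to 0.963), so no sign was turned.

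A specimen was the mean of its 2 arrays, both needed, and a gene the mean of its probes with values in all specimens, otherwise the probe with most. Features with at least 2 specimens per group were fitted with limma 3.58.1 (R 4.3.3, lmFit and eBayes, two-sided), with Benjamini-Hochberg adjustment over 18861 features at 0.05; the fit was tested on simulated data. Genes with full statistics were Dcn, the type I collagens and the 3 smallest p of each role and pathway list (2 per marker list), and other genes are named with values. Symbols come from the platform annotation, updated through RefSeq (GRCm38.p6). The members and lists were chosen with earlier results of these data known. Alternatives were other normalizations, probe and array rules, each dye alone, a random block, weights and each specimen left out. Figures used Python 3.11.15, pandas 2.3.3 and matplotlib 3.10.9.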

Additional observations from a re-analysis of the deposited data

How the results depend on the processing

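The precision is limited by 3 specimens per group. The count of matrix genes higher at an unadjusted p under 0.05 was 3 on probes with all 12 arrays, where Dcn and Prelp drop out by construction, and 2 to 6 with 1 specimen left out. The count lower was 1 with the papilloma in Cy5 alone, and the counts were 5 higher and 2 lower with flat genes removed, with Col1a2 and Sparc removed (both alternatives chosen after seeing the data), or with updated symbols. The median difference of the matrix genes ran from 0.08 to 0.14. The count of features with an adjusted p under 0.05 was 0, with 2238 at an unadjusted p under 0.05. It was 1 with the papilloma in Cy3 alone and 324 over 12 arrays with a random block per specimen. In the random-block fit Fos passed at -2.98, Col16a1 at 1.63, Tnmd at 2.14 and Crabp2 at -1.11. That fit shares 1 array correlation of 0.62 among all features and counts the 2 arrays of an animal as partly independent. No paired analysis was possible because the groups share no replicate numbers.

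Over the 47 matrix genes the sign turned in 55 of 688 alternatives, for 20 genes whose differences were at most 0.23 in size, among them Col6a2 (0.52 without Fos-deficient specimen 6), Lox, Fbn1, Loxl2 and Col4a6. Over the genes given full statistics it turned in 22 of 823, as follows. The cause was not tested. With the papilloma in Cy3 alone Col1a1 was -0.10 and Col1a2 -0.022. With it in Cy5 alone Col20a1 was -0.077, Col8a1 -0.032, Postn 0.10, the smooth muscle marker Acta2 0.10 and the macrophage marker Adgre1 -0.11. With array weights Col1a1 was -0.13, Col1a2 -0.0043, Postn 0.24 and Acta2 0.14. Acta2 was 0.039 after quantile normalization, and the adipocyte marker Plin1 was -0.031 with specimen values from 1 or 2 arrays. With 1 specimen left out, Col1a1 ran from -0.24 to 0.45, Col1a2 from -0.023 to 0.058, Postn from -0.67 to 0.16, Acta2 from -0.32 to 0.19 and Adgre1 from -0.13 to 0.35.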

Other observations

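Omd, the gene of osteomodulin, a proteoglycan of bone matrix, lay between Aspn and Ogn on chromosome 13 but had both arrays in only 1 Fos-deficient papilloma. It read 0.50 in Fos-deficient specimen 6, and its single arrays read 0.13 in specimen 8 and -0.70 in specimen 9, against -0.78, -0.34 and 0.76 in Fos-floxed specimens 2, 3 and 5. Of the genes reached only through an updated symbol, Col6a4 read 0.26, -0.11 and 0.05 in Fos-deficient papillomas, against 0.26, 0.34 and 0.51 in Fos-floxed papillomas. Its groups all but touched, with 0.2585 in Fos-deficient specimen 6 and 0.2607 in Fos-floxed specimen 2. Col26a1 had a difference of -0.16.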
